A study of Mus musculus with 6 samples.

Results

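The enzymes that write, maintain, oxidize and protect 5-methylcytosine in DNA were examined as a group of 10 genes in mouse oocytes: Dnmt1, Dnmt3a, Dnmt3b, Dnmt3l, Uhrf1, Tet1, Tet2, Tet3, Dppa3 and Tdg. They were chosen by name, with earlier results of these data known, and all 10 were found among the 28738 genes of the table. The oocytes were fully grown and at the germinal vesicle stage, on a strain labelled C57/Bl6/N;129SvEv7. The 2 groups were labelled control and Uba3 cKO, a conditional knockout of Uba3, the gene for the catalytic part of the heterodimer that activates the ubiquitin-like protein NEDD8. There were 3 pools of about 150 oocytes in each group, and 1 library was made from each pool, here called control pools 1 to 3 and cKO pools 1 to 3. The driver of the deletion, the alleles that the controls carried and the age of the mice are not stated in the sources used here, and nothing says that the pools came from separate animals. The p-values thus measure only the spread between these pools.

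DNA methylation is laid down in the growing oocyte by DNMT3A with its catalytically inactive partner DNMT3L, and is copied at replication by DNMT1, which UHRF1 brings to hemimethylated DNA. The TET enzymes oxidize 5-methylcytosine, and the glycosylase TDG excises the more oxidized products so that base excision repair can restore cytosine. TET3 acts on the paternal genome after fertilization, while DPPA3, also called Stella, protects maternal methylation and in oocytes keeps UHRF1 out of the nucleus. Cullin-RING ligases, whose activity depends on NEDD8, act on some of these proteins, among them the CUL4-DDB1-DCAF1 ligase that ubiquitinates TET proteins.

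Tet1 and Tet2 rose in Uba3 cKO oocytes, and the other 8 genes did not pass the test. Tet1 was 2.0-fold higher (95% confidence interval 1.64 to 2.43) and Tet2 was 1.41-fold higher (1.22 to 1.62). A difference is the Uba3 cKO mean less the control mean of the deposited log2 values, tested in limma with Benjamini-Hochberg adjustment over the 17450 genes that reached a linear value of 10 in at least 3 of the 6 libraries. A gene was called at an adjusted p under 0.05. All 10 genes were among the 17450. Of them, 2 were called higher and 0 lower, while 5.64% of all tested genes were called higher and 2.50% lower. The median log2 difference was 0.10 over the 10 genes and -0.01 over all tested genes.

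The promoters of the 3 TET genes are shown because 2 of the genes rose and the third, by far the most abundant, was not called. Each line gives the 250 bases before the annotated start, 5′ to 3′ on the strand of the gene, from RefSeq on GRCm38.p6, with each CpG, the site these enzymes act on, in capitals. Tet1 is at chr10:62887325-62887574, Tet2 at chr3:133544391-133544640 and Tet3 at chr6:83441679-83441928, all on the minus strand.
Tet1: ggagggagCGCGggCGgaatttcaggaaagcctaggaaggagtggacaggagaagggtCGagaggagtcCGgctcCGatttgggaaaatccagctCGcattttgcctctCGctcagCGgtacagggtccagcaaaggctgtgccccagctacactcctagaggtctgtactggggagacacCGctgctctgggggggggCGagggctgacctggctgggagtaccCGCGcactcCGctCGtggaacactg
Tet2: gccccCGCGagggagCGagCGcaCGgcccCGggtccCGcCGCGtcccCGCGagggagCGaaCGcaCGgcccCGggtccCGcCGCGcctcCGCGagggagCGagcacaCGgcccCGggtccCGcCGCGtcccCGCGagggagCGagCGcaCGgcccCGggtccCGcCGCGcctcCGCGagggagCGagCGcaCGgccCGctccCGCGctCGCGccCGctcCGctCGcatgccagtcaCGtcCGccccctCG
Tet3: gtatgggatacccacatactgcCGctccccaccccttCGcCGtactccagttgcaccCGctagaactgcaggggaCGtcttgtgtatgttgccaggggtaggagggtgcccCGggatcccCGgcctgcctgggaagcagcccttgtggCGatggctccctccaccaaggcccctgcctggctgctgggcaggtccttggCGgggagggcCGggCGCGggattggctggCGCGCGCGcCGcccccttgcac
The Tet2 window held 51 CpGs, more than 99.9% of the 32851 RefSeq windows of this length, whose median was 6. The Tet1 window held 15 CpGs, more than 72.7% of windows, and the Tet3 window 17, more than 76.5%. Each of the 3 windows held 1 GC box (GGGCGG on either strand, which contains a CpG), a motif present in 32.7% of all windows. The genes that rose and the gene that was not called were thus not separated by this motif. The data do not show which start site the oocytes used.

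The library labels were first checked on the targeted gene. Uba3 stood at 11.37, 11.46 and 11.34 in control pools 1, 2 and 3 and at 10.03, 10.16 and 10.36 in the cKO pools, a difference of -1.21 (SE 0.10). These are log2 values that the authors had normalized, without read counts, so depth is unknown. Across tested genes, correlations between libraries lay between 0.995 and 0.998. All 15 oocyte markers passed the filter, with control means from 8.60 for Figla to 17.05 for Bmp15. Of the marker lists for other cells, only the sums for theca, stroma and luteal cells did not overlap between the groups. The summed linear values of 18 theca, stroma and luteal markers ranged from 4461 to 6492 in control and from 3157 to 4154 in Uba3 cKO libraries. Over all tested genes, 5.64% were called higher and 2.50% lower. Of the 16 theca, stroma and luteal markers that passed the filter, 7 were called lower, Cyp11a1, Lhcgr, Dcn, Col1a2, Col3a1, Acta2 and Nr2f2. Of these calls, those of Dcn and Col3a1 held without each of the 6 libraries. Leaving out control pool 2, control pool 3 or cKO pool 3 ended each of the other 5, as did cKO pool 1 for Lhcgr, Col1a2 and Nr2f2 and control pool 1 for Col1a2 (adjusted p up to 0.19). For 17 granulosa and cumulus markers, the sums were 24125 to 33523 and 21412 to 26504, which overlapped. Fshr and Kitl were called higher and Inhba and Aldh1a1 lower, and 12 of the 16 that passed the filter were not called. Leaving out control pool 1 or 2 or cKO pool 1 or 2 raised the adjusted p of Fshr to as much as 0.108 and ended its call. For Kitl the call ended without control pools 2 or 3 or cKO pools 1 or 3 (up to 0.111). That of Inhba ended without control pool 2 or cKO pool 3 (up to 0.089), and that of Aldh1a1 without control pools 2 or 3 or cKO pool 1 (up to 0.099). The sums of the 15 oocyte markers were 547713 to 618837 in control and 484223 to 541458 in Uba3 cKO libraries, which also did not overlap. Zp2 and Bmp15 were called lower and 13 were not called. The call of Zp2 ended without control pool 3 (adjusted p = 0.0543), and that of Bmp15 when any pool other than control pool 3 was left out (up to 0.134). Apart from Zp2 and Bmp15, the markers named here were chosen after their values were seen. Among the theca, stroma, luteal, granulosa and cumulus markers, Insl3, Tcf21 and Ptx3 were below the filter. The part of these shifts in the results for the methylation genes was not tested. In pooled oocytes, fewer cells of a type and less RNA per cell cannot be told apart.

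Tet1 encodes a 5-methylcytosine dioxygenase that in germ cells is known for the demethylation of meiotic genes. Tet1 (ENSMUSG00000047146, chromosome 10) stood at 8.83, 8.33 and 8.39 in control pools 1, 2 and 3, and at 9.66, 9.49 and 9.40 in the cKO pools. Every Uba3 cKO library was above every control library, with control pool 1 the highest of the controls. Control pools averaged 8.52 ± 0.28 and cKO pools 9.52 ± 0.13 (SD, n = 3 each). They differed by 1.0 (SE 0.13; limma, adjusted p = 4.78e-04). By exact two-sided permutation p was 0.1, which is the least that 3 pools against 3 can give. Tet1 was the 40th largest rise among the 984 genes called higher. The difference lay between 0.90 and 1.16 over the 20 alternative settings tried, and the highest adjusted p among them was 0.00682.

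Tet2 encodes a related dioxygenase that lacks the CXXC DNA-binding domain of TET1. Tet2 (ENSMUSG00000040943, chromosome 3) stood at 8.70, 8.67 and 8.68 in the control pools and at 9.18, 9.19 and 9.14 in the cKO pools. The libraries of each group were close together, and the groups did not overlap. The difference was 0.49 (SE 0.09, adjusted p = 0.00605 in limma; exact permutation p = 0.1), between means of 8.68 ± 0.02 and 9.17 ± 0.03 (SD, n = 3). It was the 422nd largest of the 984 rises. It lay between 0.40 and 0.51 over the 20 alternatives, with adjusted p up to 0.035.

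Tet3 encodes the TET enzyme that the egg supplies to the zygote. Tet3 (ENSMUSG00000034832, chromosome 6) stood at 13.82, 13.03 and 13.44 in the control pools and at 13.93, 13.70 and 13.28 in the cKO pools. The groups overlapped, and control pool 2 was the lowest of the 6 libraries. The difference was 0.21 (SE 0.17, 95% confidence interval -0.17 to 0.58, adjusted p = 0.519), so a rise of the size seen for Tet2 lies inside the interval and one of the size seen for Tet1 lies outside it. The spread of Tet3 between controls (SD 0.39) was wider than that of 99.1% of tested genes. Without control pool 2 the difference was 0.0091, and without control pool 1 it was 0.40. Without cKO pool 1 it was 0.06, and without cKO pool 3 it was 0.39.

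**Figure D1:**
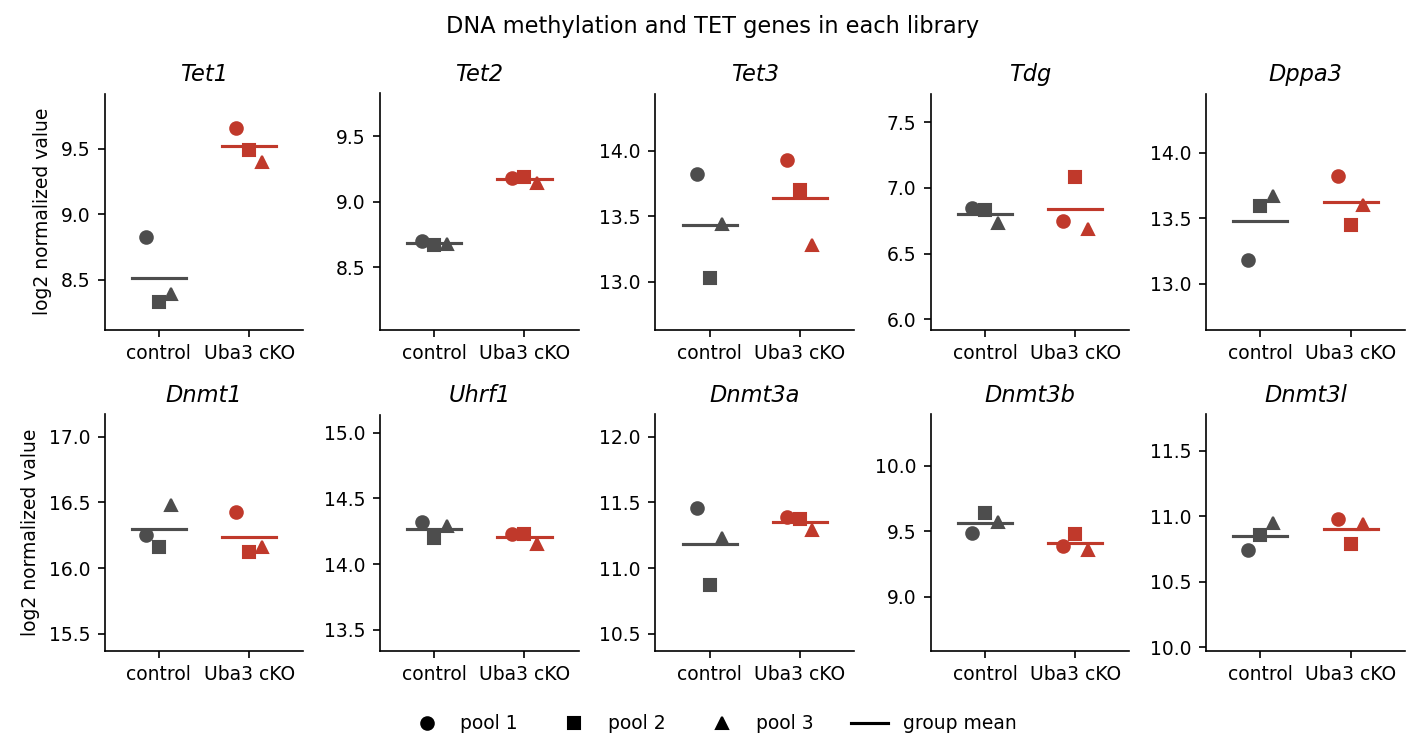
Deposited log2 normalized value (y axis) of the 10 genes in control (grey) and Uba3 cKO (red) libraries (x axis), with a circle, a square and a triangle for pools 1, 2 and 3 and a line at the group mean; each panel spans the same number of log2 units around its own centre. Tet1 and Tet2 lie above all control values in all 3 cKO pools, while Tet3 overlaps between the groups and its control pool 2 stands at 13.03.

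Whether Tet1 and Tet2 moved apart from Tet3 was tested by their ratio within each library, where the scaling of a library cancels. The log2 ratio of Tet1 to Tet3 was -4.98, -4.70 and -5.05 in the control pools and -4.27, -4.21 and -3.88 in the cKO pools. It was higher by 0.79 in Uba3 cKO libraries, with no overlap (exact two-sided permutation p = 0.1, the smallest possible, and 0.3 after adjustment over the 6 ratios tested). The ratio of Tet1 to Tet2 also did not overlap, at 0.14, -0.34 and -0.29 in control and 0.48, 0.30 and 0.26 in Uba3 cKO libraries (difference 0.51, same exact p of 0.1 and adjusted 0.3). The ratio of Tet2 to Tet3 overlapped, with a difference of 0.28 (exact permutation p = 0.4, adjusted 0.6). That difference was 0.10 without control pool 1, 0.12 without cKO pool 3, 0.48 without control pool 2 and 0.42 without cKO pool 1. With 3 libraries a group none of these ratios could pass the threshold.

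**Figure D2:**
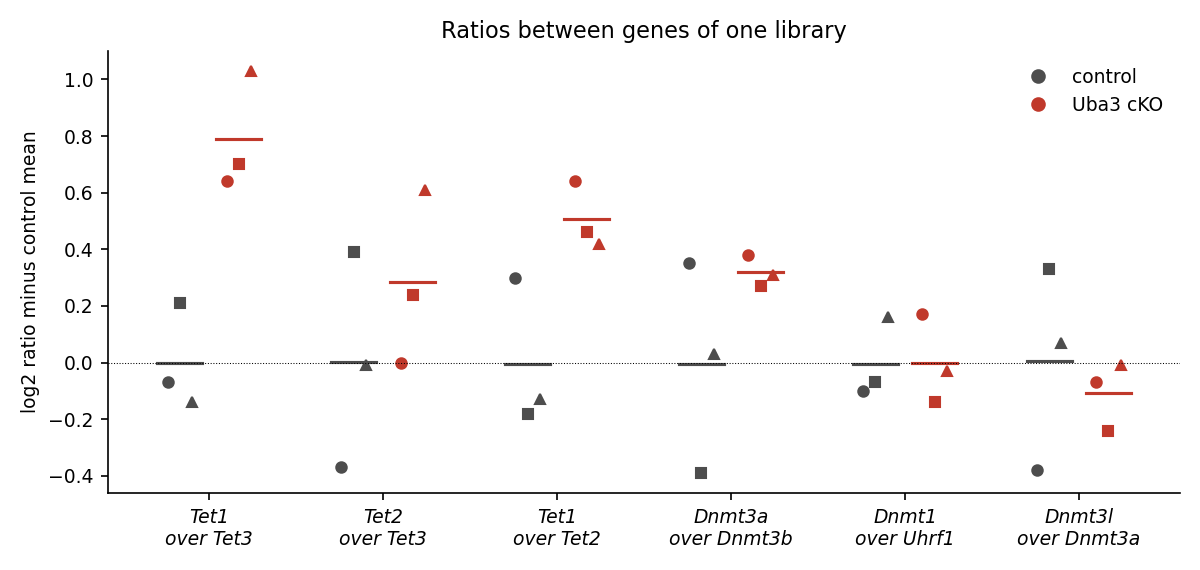
Log2 ratio between 2 genes of the same library, minus the control mean of that ratio (y axis), for the 6 ratios tested (x axis), with a circle, a square and a triangle for pools 1, 2 and 3 and a line at the group mean. The ratios of Tet1 to Tet3 and of Tet1 to Tet2 are higher in all 3 Uba3 cKO libraries than in all 3 control libraries, and the other 4 ratios overlap.

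Levels were compared between genes only after division by the exonic length of each gene. On that scale Tet3 made up most of the TET RNA in both groups. Its share of the summed TET level was 94.1%, 91.8% and 93.5% in the control pools and 91.5%, 90.7% and 88.5% in the cKO pools, lower in every Uba3 cKO library (exact permutation p = 0.1). With the length of the longest transcript in place of all exons, the shares of Tet3 were 94.5%, 92.0% and 93.7% against 92.3%, 91.5% and 89.3%, which overlapped (exact permutation p = 0.2). The share of Tet1 was 3.36% ± 0.401 (SD, n = 3) in the control and 5.64% ± 0.753 (SD, n = 3) in the cKO pools, a difference of 2.28 percentage points with no overlap (exact permutation p = 0.1, the smallest possible). The share of Tet2 was 3.51% ± 0.876 and 4.10% ± 0.816 (SD, n = 3; exact permutation p = 0.5). Tet1 and Tet2, the genes that rose, were thus the minor TET transcripts in both groups.

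The 10 genes spanned a wide range of control levels on the log2 scale per kilobase of exons. Dppa3 (13.65 ± 0.26) and Dnmt1 (13.41 ± 0.17) came first and overlapped, followed by Uhrf1 (12.18 ± 0.06), which was below both in every control library. Tet3 (9.37 ± 0.39) and Dnmt3l (9.27 ± 0.11) overlapped, as did Dnmt3b (7.22 ± 0.08) and Dnmt3a (7.13 ± 0.29) (all SD, n = 3). Tet2 (4.60 ± 0.02), Tet1 (4.57 ± 0.28) and Tdg (4.38 ± 0.06) were lowest, and Tet1 overlapped with both others. In the cKO pools, Tet1 (5.45 to 5.71 over the libraries) was above Tet2 (5.07 to 5.11), and both were above Tdg (4.26 to 4.65). With the length of the longest transcript, the share of Tet1 was instead below that of Tet2 in every library. In the cKO pools it was 3.63%, 3.75% and 4.61% against 4.08%, 4.78% and 6.04%. The order of Tet1 and Tet2 thus depends on the length used. Per kilobase of exons, Dnmt3a (7.23 to 7.33) was above Dnmt3b (7.01 to 7.13) in the cKO pools. With the longest transcript, the share of Dnmt3a in the summed DNMT level was above that of Dnmt3b in all 6 libraries. In the control pools these shares were 1.98%, 1.4% and 1.45% against 1.13%, 1.33% and 1.03%. The order of Dnmt3a and Dnmt3b in control thus depends on the length used. Their log2 ratio overlapped between the groups (difference 0.32, exact permutation p = 0.3, adjusted 0.6). Without control pool 2 that difference was 0.13, and without control pool 1 it was 0.49.

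Tdg and Dppa3 were not called. Tdg, the glycosylase that removes oxidized 5-methylcytosine, stood at 6.85, 6.83 and 6.73 in the control pools and at 6.75, 7.08 and 6.69 in the cKO pools (difference 0.04, 95% confidence interval -0.20 to 0.27, adjusted p = 0.88). Dppa3 stood at 13.18, 13.59 and 13.67 in control and at 13.82, 13.45 and 13.60 in Uba3 cKO libraries (difference 0.14, 95% confidence interval -0.12 to 0.41, adjusted p = 0.529). Both overlapped between the groups, and the difference of Dppa3 rested on its low value in control pool 1, without which it was -0.0043. Without cKO pool 1 the difference of Dppa3 was 0.05, and without cKO pool 2 that of Tdg was -0.08. Copies of Dppa3 and Tdg elsewhere in the mouse genome could have taken part of their reads, so these values are uncertain.

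The maintenance pair was among the most abundant. Dnmt1, the maintenance methyltransferase, stood at 16.25, 16.16 and 16.48 in the control pools and at 16.43, 16.12 and 16.16 in the cKO pools (difference -0.06, 95% confidence interval -0.26 to 0.14, adjusted p = 0.742). Uhrf1 stood at 14.32, 14.20 and 14.29 in control and at 14.23, 14.23 and 14.15 in Uba3 cKO libraries (difference -0.07, 95% confidence interval -0.22 to 0.09, adjusted p = 0.642). Both overlapped between the groups, and a change of the size seen for Tet2 in either direction lies outside both intervals. The log2 ratio of Dnmt1 to Uhrf1 was 2.03 ± 0.14 in control and 2.03 ± 0.16 in Uba3 cKO libraries (SD, n = 3; exact permutation p = 0.9). The table counts whole genes, so the oocyte form of Dnmt1 cannot be told apart from the somatic form.

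The de novo methyltransferases and their partner were not called either. Dnmt3a, the catalytic enzyme of oocyte methylation, stood at 11.46, 10.87 and 11.23 in the control pools and at 11.39, 11.37 and 11.29 in the cKO pools. Its difference was 0.16 (95% confidence interval -0.11 to 0.43, adjusted p = 0.48). Control pool 2 was the lowest library, as for Tet3. The difference of Dnmt3a was 0.0066 without control pool 2 and 0.30 without control pool 1. After a correction of each library for exonic length and GC content, control pool 2 was still lowest for Dnmt3a (11.03) and Tet3 (13.18).

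Dnmt3l stood at 10.74, 10.86 and 10.95 in control and at 10.98, 10.79 and 10.94 in Uba3 cKO libraries (difference 0.05, 95% confidence interval -0.16 to 0.26, adjusted p = 0.804). Dnmt3b, which is not required for methylation in oocytes, stood at 9.49, 9.64 and 9.57 in control and at 9.39, 9.48 and 9.36 in Uba3 cKO libraries. Dnmt3l overlapped between the groups, while every Uba3 cKO value of Dnmt3b was below every control value. The difference of Dnmt3b was -0.16 (SE 0.10, 95% confidence interval -0.37 to 0.05, adjusted p = 0.362), so it was not called. Values of the groups were fully separated for 3 of the 10 genes, Tet1, Tet2 and Dnmt3b, close to the 27.9% of all tested genes for which they did not overlap (15.1% higher and 12.8% lower).

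**Figure D3:**
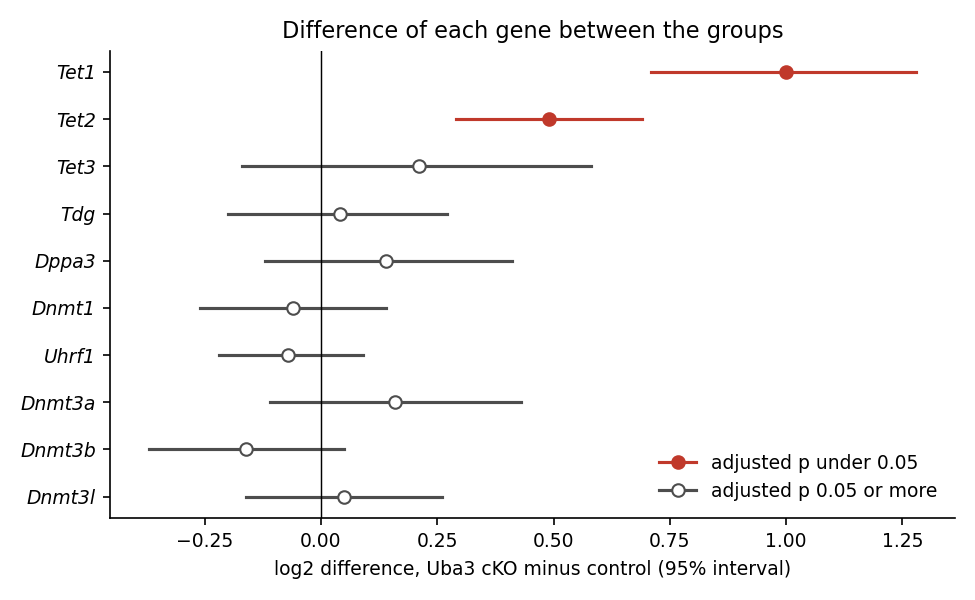
Log2 difference, Uba3 cKO minus control, of each gene (x axis) with its 95% confidence interval from limma; filled red points have an adjusted p under 0.05. Tet1 at 1.0 and Tet2 at 0.49 are the 2 genes called, and the intervals of the other 8 include 0.

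Genes around this machinery were examined in 8 lists. Of all tested genes, 8.14% were called in either direction. Proteins that read methylated DNA gave 1 call among 11 genes. Zbtb33, which encodes the methyl-CpG-binding repressor Kaiso, rose from 11.56 ± 0.06 to 11.93 ± 0.06 (SD, n = 3), by 0.38 (SE 0.09, adjusted p = 0.0166). Leaving out control pool 3, cKO pool 1 or cKO pool 3 ended this call (adjusted p up to 0.0923).

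Among 17 genes of base excision repair and the removal of oxidized or deaminated cytosine, 1 rose and 2 fell. Neil2, a glycosylase of oxidized bases, rose by 0.46 (SE 0.11, adjusted p = 0.0159), from 8.06, 7.80 and 8.07 to 8.42, 8.44 and 8.46. Apex1, the endonuclease that cuts at abasic sites, fell by 0.41 (SE 0.10, adjusted p = 0.0261), from 10.13, 10.42 and 10.25 to 9.81, 9.92 and 9.85. Smug1, a uracil and 5-hydroxymethyluracil glycosylase, fell by 0.34 (SE 0.09, adjusted p = 0.026), from 11.62, 11.73 and 11.64 to 11.33, 11.32 and 11.31. The groups did not overlap for any of the 3, and the list's median was -0.05. Leaving out 1 library ended the call of Neil2 without control pool 2 or cKO pools 1 or 3 (adjusted p up to 0.0705). It ended that of Apex1 without control pools 2 or 3 or cKO pools 1 or 3 (up to 0.107), and that of Smug1 when any pool other than control pool 1 was left out (up to 0.097).

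Of 15 genes for regulators of TET and DNMT proteins, 1 was called. Ogt, whose product adds O-GlcNAc and binds TET proteins, rose by 0.30 (SE 0.09, adjusted p = 0.049). It was not called under 7 other settings at the threshold of 0.05 (adjusted p up to 0.146), nor when any pool other than control pool 1 was left out (adjusted p up to 0.188). The components of the CUL4 ligase that acts on TET proteins were in this list and were not called, with log2 differences of 0.05 for Cul4a, 0.14 for Cul4b, -0.12 for Ddb1 and 0.08 for Dcaf1. These 4 genes were named after their values were seen. Of 12 histone enzymes that steer DNA methylation, Ehmt1, a histone H3 lysine methyltransferase, fell by 0.32 (SE 0.09, adjusted p = 0.0422), and its call ended when any 1 of the 6 pools was left out (adjusted p up to 0.142). Of 15 genes of methyl donor supply, Gnmt, which consumes S-adenosylmethionine, fell by 0.37 from 6.08 (adjusted p = 0.0216), with the call ended without control pools 2 or 3 or cKO pools 1 or 2 (up to 0.107).

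Of 10 tested factors that maintain imprints, 2 rose. Arid4a, which encodes a chromatin protein that binds RB1, stood at 10.21, 10.21 and 10.27 in the control pools and at 11.24, 11.19 and 11.26 in the cKO pools. Its difference was 1.0 (SE 0.09, adjusted p = 2.21e-05), as large as that of Tet1, and its call held without each of the 6 libraries. Zfp445, a zinc finger protein of imprint maintenance, rose by 0.34 (SE 0.10, adjusted p = 0.0448), a call that ended under 7 other settings (adjusted p up to 0.115) and when any pool other than control pool 1 was left out (adjusted p up to 0.191).

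Imprinted genes, whose expression from one parental allele is set by methylation from the germ line, were called at a share near that of all genes. Of 54 listed, 47 passed the filter, 2 rose and 2 fell, and their median difference was -0.01. Zim1, which lies beside Peg3, rose from 7.64, 7.72 and 7.67 to 8.29, 8.40 and 8.33, by 0.66 (SE 0.10, adjusted p = 9.57e-04), and was called without each of the 6 libraries. Herc3 rose by 0.30 (adjusted p = 0.0483), Grb10, a growth factor receptor adaptor, fell by 0.41 (adjusted p = 0.0343), and Copg2, a coatomer subunit, fell by 0.41 (adjusted p = 0.0166). The call of Herc3 ended when any 1 of the 6 pools was left out (up to 0.152), that of Grb10 when any pool other than control pool 2 was left out (up to 0.107), and that of Copg2 without control pool 2 or cKO pool 1 (up to 0.0791). Copg2 and Herc3 overlap the imprinted genes Mest and Nap1l5, so their reads are uncertain.

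Germline genes that promoter methylation silences in somatic cells, a group that includes meiotic genes regulated by TET1 in primordial germ cells, gave 2 rises among 21 tested. Sycp3, a component of the synaptonemal complex, rose from 9.82, 9.66 and 9.63 to 10.14, 10.24 and 10.16, by 0.48 (SE 0.10, adjusted p = 0.00836). Dazl, an RNA-binding protein, rose by 0.40 (SE 0.11, adjusted p = 0.0449), with an overlap between the groups. The list's median was -0.06, and 19 of its genes were not called. Leaving out control pool 3 ended the call of Sycp3 (adjusted p = 0.0552), and leaving out control pool 2 or 3 or cKO pool 1 or 3 ended that of Dazl (up to 0.211).

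**Figure D4:**
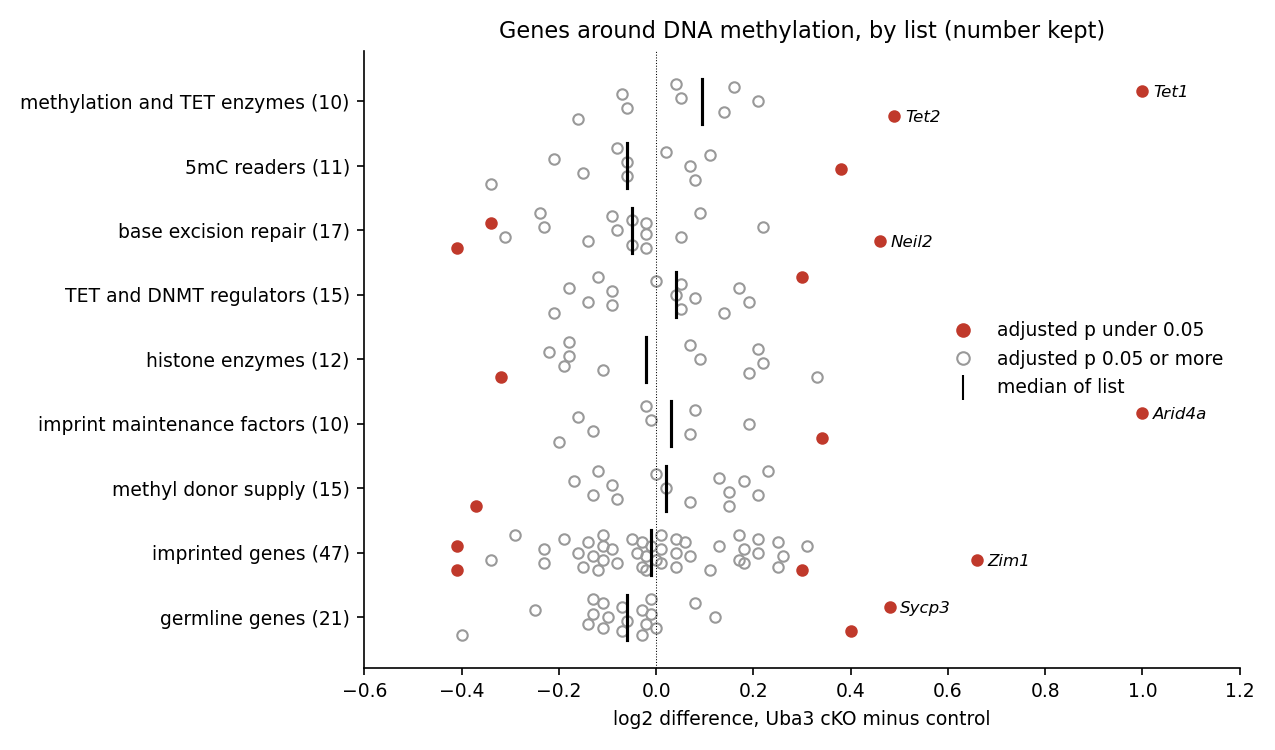
Log2 difference, Uba3 cKO minus control (x axis), of every tested gene of the methylation and TET genes and of 8 lists around them (rows, with the number tested), with a bar at each median; filled red points have an adjusted p under 0.05, and those beyond 0.45 are named. The medians lie between -0.06 and 0.10, and Tet1 and Arid4a stand at 1.0.

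The genes whose pattern over the 6 libraries was most like that of Tet1 were found among 13842 tested genes, leaving out predicted gene models, clone names and pseudogenes. Pearson correlations were 0.9983 for Bmpr1a, a BMP receptor, 0.9980 for the non-coding RNA Sox2ot, 0.9951 for Wee1, the inhibitory kinase of CDK1, and 0.9938 for both Hspa4l, a heat shock protein, and Thoc2, a subunit of the THO complex. The 6 libraries fall into 2 groups, so these correlations contain the difference between the groups. Bmpr1a rose by 0.37 (adjusted p = 0.0218), Wee1 by 0.48 (adjusted p = 0.00959) and Thoc2 by 0.67 (adjusted p = 0.00167). Sox2ot (0.18, adjusted p = 0.101) and Hspa4l (0.30, adjusted p = 0.0579) were not called.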

How the data were processed

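RNA of 6 pools of fully-grown oocytes was sequenced from Illumina TruSeq libraries, per the labels. Named in the submitters' processing notes are the build GRCm39 and the tools fastp, STAR, featureCounts and DESeq2, with no versions. The strand setting and the treatment of multi-mapped reads are not given in the sources used here. The deposited table holds log2 values for 28738 Ensembl gene IDs, normalized between libraries by the authors. The values run from 0.0363 to 18.01 with no exact 0, from which the unit was inferred, and the transform is not named. No read counts were used, so depth is unknown and intervals for counting error could not be given.

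Symbols (96.2% of IDs), lengths and GC content came from GENCODE M21, which is on an earlier build, and promoter coordinates are RefSeq's on GRCm38.p6. Groups came from the sample titles. Genes with a value of 10 or more on the linear scale (the antilog of the deposited value) in at least 3 libraries were kept (17450). The test was limma 3.58.1 (R 4.3.3) with eBayes and an intensity trend, with Benjamini-Hochberg adjustment over all kept genes. The fit was tested on simulated data with 200 changed genes. It recovered 16% of those with a log2 change of 0.3, 78% at 0.6, 94% at 1 and 98% at 1.5. Single values were tested by exact two-sided permutation in Python 3.11.15, and lists were only counted.

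The genes and lists were chosen with earlier results of these data known. The genes named are the 10 members, Uba3, called list members (or, where none was called, the 2 most abundant), the CUL4 ligase genes and the 5 genes most correlated with Tet1. For markers the rule was up to 3 abundant ones of a list, but most of those named were chosen after their values were seen. Ctcfl, Stra8 and Cd79a were not analysed here. Alternatives covered scaling, pseudocount, filter, variance model, sample weights, a replicate block, length and GC content, the threshold and leaving out each library. Replicate numbers are taken from the titles, and nothing in the labels ties equal numbers together.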

Additional observations from a re-analysis of the deposited data

How the results depend on the processing

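Tet1 and Tet2 were called in the same direction under all 20 alternatives, and no other of the 10 genes was called under any of them. The differences of genes that were not called changed sign in 5 cases, all close to 0. Dnmt1 stood at 0.09 under quantile normalization and between -0.16 and 0.03 with 1 pool left out. With 1 pool left out Dnmt3l stood between -0.0061 and 0.11, Dppa3 between -0.0043 and 0.24, and Tdg between -0.08 and 0.11. Leaving out 1 library moved the log2 ratio of Dnmt1 to Uhrf1 between -0.08 and 0.09 (-0.05 and -0.03 without control pools 1 and 2), that of Dnmt3l to Dnmt3a between -0.30 and 0.05, and the difference in the share of Dnmt3b between -0.161 and 0.00463 percentage points. The cause was not tested.

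Over all genes, calls numbered 984 higher and 437 lower. They were 417 and 101 at an adjusted p under 0.01 and 1386 and 790 at one under 0.10, while sample weights gave 1469 and 829. Leaving out 1 library gave 482 to 1014 higher and 136 to 623 lower calls. With the replicate block there were 899 higher and 359 lower calls, and the difference of Tet1 was 1.0 (adjusted p = 4.29e-06) and that of Tet2 0.49 (adjusted p = 0.0106). Deviations of same-numbered libraries correlated at -0.09, -0.20 and -0.05 across genes, and no library correlated best with its own number, so the numbers were not treated as pairs. At an adjusted p under 0.01, the calls of Zbtb33, Smug1, Neil2, Apex1, Ogt, Ehmt1, Zfp445, Gnmt, Grb10, Copg2, Herc3 and Dazl all ended. At the threshold of 0.05, besides leaving out pools, other settings ended the call of Zbtb33 and Smug1 (1 setting each, adjusted p of 0.0567 and 0.062). They also ended that of Ehmt1 (3, up to 0.0951), Herc3 (6, up to 0.168) and Dazl (4, up to 0.105). Among the markers of oocytes and other cells, they ended the call of Bmp15 (7, up to 1), Cyp11a1 (2, up to 0.244) and Aldh1a1 (2, up to 0.216). A fit with no intensity trend alone ended those of Lhcgr, Col1a2, Acta2, Nr2f2, Inhba and Hbb-bs (0.0515 to 0.065), and quantile normalization that of Zp2 (0.0537). If the transform shrinks low values, the differences of Tdg and other low genes understate the change, which was not tested. Shares of TET and DNMT genes used exonic length. With the longest transcript, an alternative chosen after seeing the data that also removed the separation of the groups for Tet3, Tet1 held 2.37% of TET RNA in control and 4.0% in Uba3 cKO libraries.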

Other observations

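RefSeq gave 16 promoter windows for 9 of the 10 genes. The sequence TTCGCGC, a form of the E2F site searched on both strands, was present in 1 of 3 windows of Dnmt1 and 1 of 2 windows of Uhrf1, against 1.28% of all windows, and in none of the other members' windows. That sequence itself contains CpGs, and the matching windows held 26 CpGs for Dnmt1 and 30 for Uhrf1, against a median of 6 over all windows. The share over all windows is therefore not a like comparison. An E-box, CACGTG, was also searched. It was present in 1 window each of Dnmt3a, Dnmt3l and Tdg, and in 6.02% of all windows. These matches are descriptions of letters and show no binding.

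Markers of blood vessels and blood were also examined, and those named here were chosen after their values were seen. Control means of the endothelial markers ran from 2.66 for Cldn5 to 11.30 for Pecam1, with Eng and Cldn5 below the filter. Those of the blood and immune markers ran from 1.52 for Cd3e to 8.32 for C1qb, with C1qa and Cd3e below the filter. The sums thus rest mostly on the highest markers. Whether these RNAs came from vessel or blood cells was not tested. The summed linear values of 10 endothelial markers were 4059 to 4387 in control and 4067 to 4801 in Uba3 cKO libraries, and those of 11 blood and immune markers were 600 to 716 and 552 to 602. Of 8 tested endothelial markers, Tie1 fell and 7 were not called. Of 9 tested blood and immune markers, C1qb and Hbb-bs fell and 7 were not called. Over all tested genes, 2.50% were called lower. The call of Tie1 held without each of the 6 libraries (adjusted p up to 0.0203). That of C1qb ended when any 1 of the 6 was left out (up to 0.198) and under 5 other settings (up to 0.118), and that of Hbb-bs without control pools 1 or 3 or cKO pools 1 or 3 (up to 0.0954).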
